A study of Brassica napus with 27 samples.

Results

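The transcript levels of MYB domain transcription factor genes were followed in leaves of *Brassica napus* (oilseed rape) cultivar Visby that had been treated with 1 of 2 auxinic herbicides. The genes were chosen in the deposited table by the family Myb_DNA-binding, which 722 of the 104573 genes carry without a response regulator domain, and by a level of 5 FPKM or more in 3 or more of the 27 libraries. FPKM are fragments counted on a gene, divided by its length and by a denominator of the library. The rule left 95 members. Of the other MYB genes, 203 reached the lower limit for testing (1 FPKM or more in 3 or more libraries), 302 had reads below that limit, and 122 had no read in any library. Just outside the rule lay BnaC09g01940D, BnaCnng22510D, and BnaA05g28150D, with 4.91, 4.83, and 4.75 FPKM in their library of third-highest value, and just inside lay BnaA07g24010D, BnaCnng72430D, and BnaA10g16590D with 5.05, 5.13, and 5.20 FPKM. A gene can pass the rule through the group in which it is high. The number of members that differ between groups is therefore no support by itself. It is given beside that of all tested genes and, in most places, that of all genes that pass the same limit.

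Plants had been grown at 15 °C with 12 h of light to growth stage BBCH11, and drops of solution were put on a leaf. The treated groups received halauxifen-methyl (Hal, 0.5 µg) or picloram (Pic, 2.4 µg), and the control group received the solvent of 1% DMSO, 0.01% Triton X-100, and 0.01 M NaOH. Leaves were frozen after 2, 48, and 96 h, which gave 9 groups of 3 libraries from different plant material. The doses of the herbicides differ, and the sources give the same numbers per leaf, per plant, and per µl, so a difference between Hal and Pic cannot be separated from the dose. Between 15565637 and 19692242 reads per library fell on genes, and Hal replicate 3 at 2 h had reads on the fewest genes (53523). The summed level of 58 leaf marker genes (chlorophyll a-b binding proteins and small chains of Rubisco) ran from 98665 FPKM in a Hal library of 96 h to 198111 FPKM in a control library of 48 h. The summed level of 16 seed storage genes (cruciferin, napin, oleosin) was at most 1.38 FPKM, and 11 of them had no read. In whole leaves, fewer cells of a type and less RNA per cell cannot be told apart.

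MYB proteins bind DNA through repeats of a helix-turn-helix domain and form one of the largest families of plant transcription factors. Members with several repeats are known from *Arabidopsis thaliana* as regulators of phenylpropanoid and glucosinolate synthesis, of epidermal cell fate, and of stress and hormone responses, and members with a single repeat take part in the circadian clock and in the phosphate starvation response. In the table, a functional description is given for 2 of the 95 members, MYB95 (BnaA07g31540D) and MYB51 (BnaA08g22580D), and for 18 of the 722 MYB genes. All 95 members carry the same family text and are listed as protein coding, so the number of repeats and the role of the other members cannot be read from the table, and they are given by their identifiers. No sequences are shown, since none were used here.

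The 95 members were mostly expressed at low levels. Their mean over the 27 libraries ran from 2.03 to 52.8 FPKM with a median of 5.32 FPKM, against 8.18 FPKM for all genes that pass the same limit, and 75 members stayed under 10 FPKM. In 17 members every library reached 5 FPKM. In 5 members the libraries that reached this value lay in a single group, and in 26 members in 2 or 3 groups. Without the libraries of a certain group, 24 members would have missed the rule, and where a gene named below is one of them, comparisons with that group are given as a description, with no test. Where a gene passed through libraries of 2 or 3 groups, its differences from the other groups can also follow in part from the rule. The subgenome letter of the identifier was A in 50 members and C in 45, and 14 of the members lie on scaffolds that are not placed on a chromosome. None overlaps another gene of the table. Gene lengths, taken from the length column of the table and in part shorter than the span of the coordinates, ran from 321 to 3153 bases with a median of 1277 bases. Most members had their highest group mean in control leaves of 96 h (31 members), in Hal-treated leaves of 96 h (21 members), or in control leaves of 48 h (13 members). The remaining groups each held the highest mean of 3 to 7 members.

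**Figure D1:**
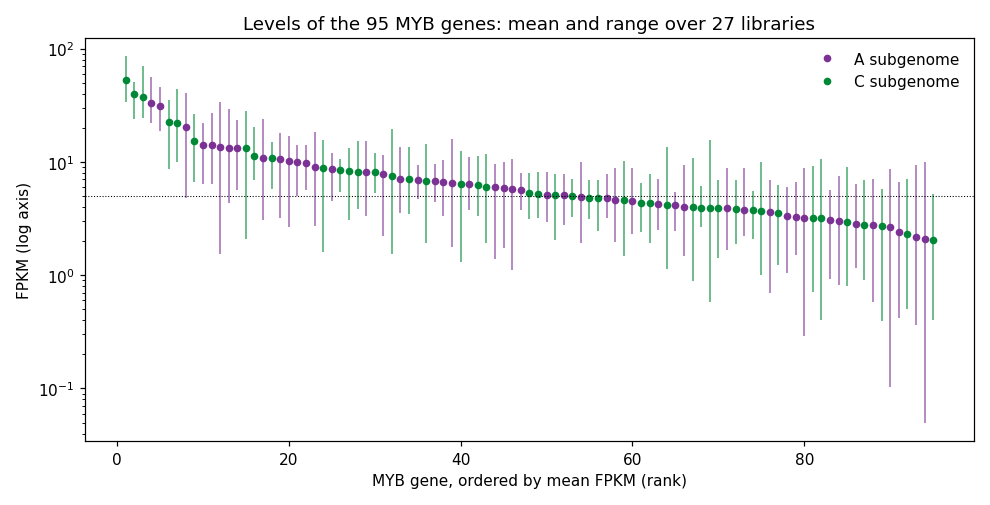
Mean FPKM (points) and range over the 27 libraries (vertical lines) of each of the 95 MYB genes, in order of the mean, on a log axis, with A subgenome genes in purple and C subgenome genes in green. The dotted line marks 5 FPKM, a lowest value of 0 is drawn at the lower end of the axis, and the means run from 2.03 to 52.8 FPKM.

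Differences between groups were tested with limma, fitted on log2(FPKM + 1) over all 27 libraries and 46395 tested genes, with p-values (two-sided) adjusted over all tested genes after Benjamini and Hochberg and called below 0.05. On this scale the changes of genes of low level come out smaller than their FPKM ratios. Over the members and comparisons the median standard error (SE) was 0.15.

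In the deposited FPKM, the 5 members of the highest level did not all respond alike. At 48 and 96 h the denominators of the Hal and Pic libraries were larger relative to the total of reads than those of the control. This lowers the herbicide FPKM relative to the control. The falls and the missing calls of these 5 genes were not examined singly with equal totals of reads. Whether the genes differ in their response at 48 and 96 h under that scaling was not tested. BnaC07g17710D (scaffold LK031884, chromosome C07, 931951 to 934406, plus strand) had the highest mean, 52.8 FPKM. At 96 h it had 33.8, 37.4, and 37.1 FPKM after Hal treatment, 41.0, 37.2, and 40.3 FPKM after Pic treatment, and 77.3, 81.4, and 85.7 FPKM in the control. It was downregulated after Hal at all times, with log2 fold changes of -0.27, -0.80, and -1.15 at 2, 48, and 96 h (adjusted p = 0.0275, 5.18e-08, and 4.22e-11), and after Pic at 48 and 96 h with -0.57 and -1.03 (adjusted p = 1.95e-05 and 1.27e-09). BnaA06g36250D (scaffold LK032130, chromosome A06, 16244 to 18633, minus strand, mean 33.4 FPKM) had a similar course, with 24.5, 24.2, and 23.3 FPKM after Hal, 22.6, 22.7, and 23.9 FPKM after Pic, and 44.7, 45.0, and 47.2 FPKM in the control at 96 h. Here the log2 fold changes at 96 h were -0.90 (SE 0.09, adjusted p = 5.62e-09) for Hal and -0.95 (SE 0.09, adjusted p = 5.98e-09) for Pic. In both genes the herbicide libraries of 96 h lay below all control libraries. BnaC08g18480D (scaffold LK031834, chromosome C08, 508031 to 509940, plus strand, mean 39.5 FPKM) was called for neither herbicide at 96 h, with 46.0, 47.5, and 48.8 FPKM after Hal, 38.9, 41.6, and 39.0 FPKM after Pic, and 42.3, 41.9, and 45.2 FPKM in the control. Among the comparisons with a control it was called only at 2 h, with log2 fold changes of -0.23 (adjusted p = 0.015) for Hal and -0.26 (adjusted p = 0.00677) for Pic. BnaA08g22290D (scaffold LK031895, chromosome A08, 579215 to 581117, plus strand, mean 31.1 FPKM) was downregulated after Hal at 2 and 48 h, with log2 fold changes of -0.34 (adjusted p = 0.00718) and -0.47 (adjusted p = 8.93e-05). BnaC08g36330D (scaffold LK031826, chromosome C08, 1719731 to 1724000, plus strand, mean 37.4 FPKM), for which the table gives the greatest gene length of the members (3153 bases), was one of 4 members that were called in none of the 6 comparisons with a control, which is 4.21%, against 16.8% of all tested genes and 6.37% above the limit. Its control libraries of 48 h were spread widely (33.8, 70.6, and 46.9 FPKM). The other 3 are BnaA08g23070D, BnaA08g26750D, and BnaC01g09850D, named here after their values were seen.

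At 2 h, 7 members were upregulated and 37 downregulated after Hal treatment, which is 46.3% of the 95, against 21.5% of all tested genes and 30.9% of the genes above the FPKM limit of the rule. After Pic treatment, 15 members were upregulated and 28 downregulated (45.3%, against 20.0% of all tested genes and 28.8% above the limit). Both comparisons of a time share the control libraries. By direction, 38.9% of the members were downregulated after Hal, against 11.4% of all tested genes and 17.2% of those above the limit, and 29.5% after Pic, against 9.37% and 14.5%. The median log2 fold change of the members was -0.27 for Hal and -0.17 for Pic, and that of all tested genes was 0 for Hal and -0.01 for Pic. The median of the genes above the limit is not given for this time. In single libraries the median of the members relative to the control mean ran from -0.33 to -0.26 in the 3 Hal libraries and from -0.19 to -0.14 in the 3 Pic libraries, against -0.01 to 0.02 in the controls. The controls are part of that mean, which holds their own medians near 0. The change was small in most members. When a change of 1 or more on the log2 scale was required as well, 9 members were lower and 0 higher after Hal (3.42% of all tested genes were called by this rule), and 3 were lower and 1 higher after Pic (4.01%). All tested genes include more genes of low level than the members, and the shares above the limit by this rule are not given here. Without Hal replicate 3, the library with reads on the fewest genes, 5 members were up and 37 down after Hal. Without Hal replicate 1 or 2 or control replicate 2 the number upregulated after Hal was 4, and without Pic replicate 3 the number downregulated after Pic was 17. Scaling of the libraries to equal totals of reads left the counts at 2 h nearly as they were (7 and 36 for Hal, 15 and 26 for Pic, against 11.3% and 11.1% and against 12.0% and 8.62% of all tested genes).

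**Figure D2:**
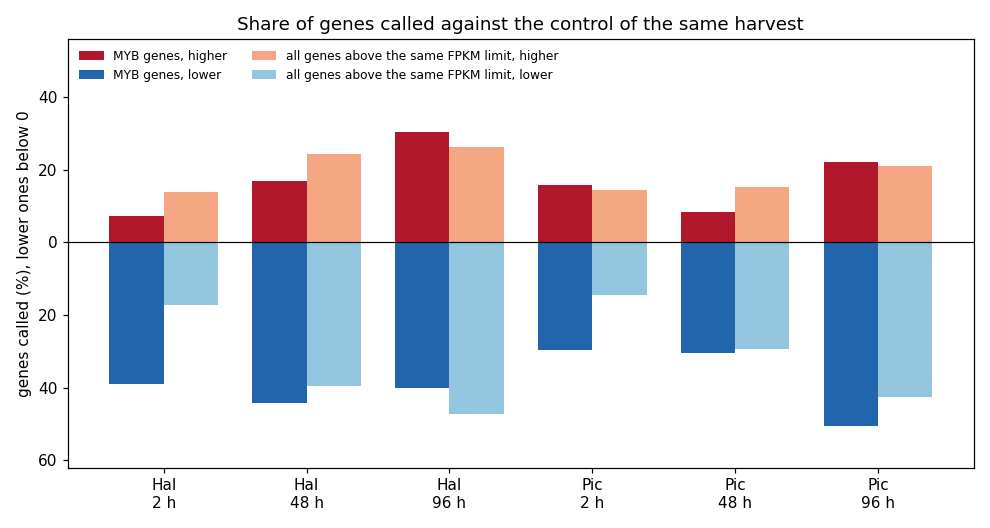
Share of genes called higher (red, above 0) and lower (blue, below 0) against the control of the same harvest (adjusted p under 0.05, limma), in percent, for the 95 MYB genes (dark) and all 21613 genes above the same FPKM limit (light), by herbicide and time. At 2 h after Hal 38.9% of the MYB genes and 17.2% of the other set were lower, and at 96 h the shares were 40.0% and 47.3%.

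The deepest falls at 2 h after Hal were those of BnaAnng06640D (scaffold LK032536, not placed on a chromosome of the A subgenome, 65689 to 67521, plus strand) and BnaC07g16030D (scaffold LK032027, chromosome C07, 483812 to 484907, plus strand). BnaAnng06640D had 2.94, 3.5, and 2.67 FPKM after Hal, 5.57, 5.63, and 3.69 FPKM after Pic, and 15.6, 15.3, and 17.0 FPKM in the control. It fell by 2.08 (SE 0.15, adjusted p = 3.55e-10) on the log2 scale after Hal and by 1.52 (SE 0.15, adjusted p = 5.26e-08) after Pic. All herbicide libraries lay below the lowest control. BnaC07g16030D had 1.59, 1.60, and 2.19 FPKM after Hal, 6.05, 7.60, and 3.65 FPKM after Pic, and 9.85, 10.6, and 11.7 FPKM in the control. The log2 fold changes were -2.07 (SE 0.17, adjusted p = 1.73e-09) for Hal and -0.83 (SE 0.17, adjusted p = 0.000665) for Pic. At 48 and 96 h the Hal libraries of this gene were within the range of the control or near it, with 14.8, 11.6, and 13.3 FPKM after Hal and 12.5, 13.4, and 15.7 FPKM in the control at 96 h (log2 fold change -0.06, adjusted p = 0.762), whereas the Pic libraries stayed lower (6.70, 8.21, and 5.51 FPKM, log2 fold change -0.93, adjusted p = 6.54e-05).

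The other gene with a low log2 fold change at 2 h after Pic was BnaAnng06630D (scaffold LK032536, not placed on a chromosome of the A subgenome, 57087 to 61971, plus strand), which lies next to BnaAnng06640D on the same scaffold. It had 1.41, 1.26, and 1.68 FPKM after Hal, 2.42, 1.11, and 1.90 FPKM after Pic, and 6.63, 5.78, and 6.54 FPKM in the control at 2 h. On the log2 scale the fold changes were -1.58 and -1.41. It is a member only through the control of 2 h, so these values are a description. The 2 genes had the same direction at 2 h and opposite directions at 48 h. At 48 h BnaAnng06640D rose to 14.6, 11.9, and 10.9 FPKM after Hal and 15.4, 13.0, and 16.9 FPKM after Pic, against 6.97, 4.02, and 5.04 FPKM in the control (log2 fold changes 1.10, adjusted p = 1.86e-06 and 1.36, adjusted p = 1.8e-07). BnaAnng06630D had 1.12, 1.46, and 1.54 FPKM after Hal, 2.14, 1.39, and 0.908 FPKM after Pic, and 5.49, 1.81, and 3.52 FPKM in the control, with log2 fold changes of -0.88 (adjusted p = 0.00181) and -0.84 (adjusted p = 0.00438). Its Hal libraries lay below the controls, and its Pic libraries overlapped them. The control libraries of BnaAnng06640D themselves were lower at 48 h than at 2 and 96 h (15.6, 15.3, and 17.0 FPKM at 2 h and 15.8, 13.8, and 15.0 FPKM at 96 h).

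The largest rise at 2 h was that of BnaC03g00940D for both herbicides (scaffold LK031823, chromosome C03, 446557 to 448845, plus strand). Its level was 1.90, 2.03, and 2.28 FPKM after Hal, 3.39, 2.70, and 3.03 FPKM after Pic, and 0.615, 0.801, and 0.726 FPKM in the control, so that no herbicide library overlapped the controls. The log2 fold changes were 0.84 (SE 0.14, adjusted p = 7.29e-05) and 1.23 (SE 0.14, adjusted p = 2.86e-07), and at 96 h they were 1.85 and 1.94. The gene reached 5 FPKM only in herbicide libraries of 96 h, so the values of that time are a description. Up to 10 tested genes on each side of it on the scaffold had a median log2 fold change of 1.14 for Hal and 1.14 for Pic at 2 h, and of 0.80 and 1.06 at 96 h, and their part in the result was not tested. BnaC01g00270D (scaffold LK032530, chromosome C01, 76802 to 77483, minus strand) had 10.5, 7.03, and 10.8 FPKM after Hal and 5.24, 5.41, and 4.61 FPKM in the control. This rise of 0.76 (SE 0.23, adjusted p = 0.017) missed the threshold without Hal replicate 1, Hal replicate 3, or control replicate 3 (adjusted p between 0.0650 and 0.0695), and for Pic the value was 0.30 (adjusted p = 0.404). BnaC08g18090D (scaffold LK031834, chromosome C08, 734012 to 735861, minus strand), the gene with the second largest rise after Pic, had 3.66, 3.05, and 3.62 FPKM after Hal, 5.04, 5.15, and 4.25 FPKM after Pic, and 1.89, 1.93, and 1.97 FPKM in the control, with log2 fold changes of 0.60 (SE 0.16, adjusted p = 0.00962) and 0.98 (SE 0.16, adjusted p = 7.01e-05).

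At 48 h, 16 members were upregulated and 42 downregulated after Hal (61.1%, against 48.5% of all tested genes and 63.9% of those above the limit), and 8 were upregulated and 29 downregulated after Pic (38.9%, against 31.8% and 44.5%). For Hal, 16.8% of the members were up and 44.2% down, against 24.3% and 39.5% of the genes above the limit and 23.3% and 25.1% of all tested genes. For Pic, 8.42% were up and 30.5% down, against 15.1% and 29.4% above the limit and 13.9% and 17.9% of all tested genes. The median log2 fold change of the members was -0.22 for Hal and -0.19 for Pic, and that of the genes above the limit was -0.15 and -0.11. The balance of rises and falls depends on the scaling. With the libraries scaled to equal totals of reads, the median of all tested genes moved by 0.25 for Hal and 0.14 for Pic, and 32 members were higher and 23 lower after Hal (33.7% and 24.2%, against 39.6% and 15.1% of all tested genes and 41.1% and 24.7% above the limit). After Pic, 16 were then higher and 20 lower (16.8% and 21.1%, against 22.5% and 10.9% of all tested genes and 25.8% and 18.0% above the limit). The median of the members was then 0.08 for Hal and 0.03 for Pic. No gene named for a large difference changed its direction under this scaling in the comparison that named it. Other comparisons and the other named genes were not checked singly. The summed leaf marker level at 48 h was between 133411 and 139806 FPKM after Hal, between 154403 and 168452 FPKM after Pic, and between 170688 and 198111 FPKM in the control, and its part in the counts was not tested.

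BnaC01g01660D (scaffold LK031789, chromosome C01, 3946130 to 3947347, plus strand) and BnaA01g00670D (scaffold LK031804, chromosome A01, 2054485 to 2055615, plus strand) had the largest rises at 48 h after Hal. BnaC01g01660D reached 12.7, 14.4, and 14.2 FPKM after Hal and 5.88, 6.36, and 7.08 FPKM after Pic, against 4.52, 3.68, and 2.79 FPKM in the control. The log2 fold changes were 1.68 (SE 0.16, adjusted p = 4.61e-09) and 0.69 (SE 0.16, adjusted p = 0.00176). BnaA01g00670D had 22.7, 21.6, and 23.2 FPKM after Hal, 7.59, 6.73, and 8.44 FPKM after Pic, and 7.01, 9.16, and 8.54 FPKM in the control. Its rise of 1.35 (SE 0.13, adjusted p = 9.04e-09) after Hal stands beside a value of -0.10 (adjusted p = 0.606) for Pic, whose libraries overlapped the controls. At 96 h both genes were upregulated after either herbicide. BnaC01g01660D then had 13.9, 14.5, and 13.1 FPKM after Hal, 6.93, 8, and 6.96 FPKM after Pic, and 2.82, 2.25, and 2.22 FPKM in the control (log2 fold change 2.12, adjusted p = 3.92e-11, for Hal and 1.28, adjusted p = 5.71e-07, for Pic). BnaA01g00670D had 23.2, 22.1, and 23.8 FPKM after Hal, 12.1, 10.2, and 8.37 FPKM after Pic, and 3.06, 3.95, and 3.99 FPKM in the control (log2 fold change 2.37, adjusted p = 1.76e-13, for Hal and 1.26, adjusted p = 4.84e-08, for Pic).

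The deepest falls at 48 h after Hal were those of BnaA02g15320D (scaffold LK031945, chromosome A02, 649262 to 650304, plus strand) and BnaC02g05990D (scaffold LK031865, chromosome C02, 219809 to 221911, minus strand). BnaA02g15320D had 5.18, 4.90, and 4.67 FPKM after Hal, 7.71, 12.2, and 11 FPKM after Pic, and 33.8, 22.7, and 29.8 FPKM in the control. Relative to the control, the log2 fold changes were -2.31 (SE 0.18, adjusted p = 1.85e-10) and -1.40 (SE 0.18, adjusted p = 2.05e-06). It was also the member with the deepest fall at 96 h after Hal, with 2.85, 1.54, and 2.58 FPKM after Hal, 11, 11.1, and 9.21 FPKM after Pic, and 23.2, 22.6, and 25.1 FPKM in the control (log2 fold change -2.91, SE 0.18, adjusted p = 1.4e-12, for Hal and -1.11, SE 0.18, adjusted p = 2.73e-05, for Pic). At 2 h the Hal libraries of this gene overlapped the control (12.6, 13.4, and 22.6 FPKM after Hal, 14.6, 15.0, and 16.0 FPKM in the control, log2 fold change 0.04, adjusted p = 0.923). BnaC02g05990D had 1.48, 1.45, and 1.31 FPKM after Hal, 9.77, 7.14, and 6.30 FPKM after Pic, and 12.4, 6.52, and 9.50 FPKM in the control. It fell by 2.08 (SE 0.19, adjusted p = 1.48e-09) after Hal, and the value for Pic was -0.24 (adjusted p = 0.349). Its neighbours on the scaffold had a median of -1.02 in the Hal comparison, and their part in the fall was not tested.

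After Pic treatment, the largest log2 fold changes at 48 h were those of BnaC08g26660D (scaffold LK031795, chromosome C08, 3009651 to 3011198, plus strand) and of BnaAnng06640D, given above. BnaC08g26660D had 3.53, 2.97, and 3.62 FPKM after Hal, 3.81, 5.20, and 5.81 FPKM after Pic, and 2.06, 0.850, and 0.895 FPKM in the control, with log2 fold changes of 0.98 (SE 0.25, adjusted p = 0.00195) for Hal and 1.41 for Pic. All herbicide libraries lay above the controls. Since the Pic libraries of 48 h are among those that made the gene a member, the value for Pic is a description. The lowest log2 fold changes after Pic were those of BnaA03g12400D (scaffold LK032696, chromosome A03, 1158 to 2203, plus strand), which has the smallest gene length in the table (321 bases), and of BnaC06g30320D (scaffold LK032427, chromosome C06, 257172 to 258923, plus strand). BnaA03g12400D had 1.76, 0.521, and 1.23 FPKM after Hal, 1.80, 1.13, and 1.30 FPKM after Pic, and 9.89, 7.67, and 6.38 FPKM in the control. This gave log2 fold changes of -2.07 for Hal and -1.89 for Pic. It reached 5 FPKM in these 3 control libraries and in no other library, so its low values against them follow from the rule. It is a gene of few reads, with 0 reads in 1 library (Pic replicate 3 at 96 h). In BnaC06g30320D the herbicides went in opposite directions at 48 h. Its level was 13.9, 14.1, and 19.6 FPKM after Hal, 1.53, 1.93, and 1.74 FPKM after Pic, and 8.31, 10.3, and 6.78 FPKM in the control, which is a rise of 0.83 (SE 0.16, adjusted p = 0.000148) after Hal and a log2 fold change of -1.78 (SE 0.16, adjusted p = 5.57e-09) after Pic. The neighbours of BnaC06g30320D had a median of -0.04 for Hal and -0.66 for Pic.

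At 96 h, 29 members were upregulated and 38 downregulated after Hal (70.5%, against 59.3% of all tested genes and 73.5% above the limit). After Pic, 21 were upregulated and 48 downregulated (72.6%, against 48.6% of all tested genes and 63.5% above the limit). The median log2 fold change of the members was -0.06 for Hal and -0.38 for Pic, and that of the genes above the limit was -0.28 and -0.22. For Hal, 30.5% of the members were up and 40.0% down, against 26.2% and 47.3% of the genes above the limit and 29.1% and 30.2% of all tested genes. For Pic, 22.1% were up and 50.5% down, against 21.0% and 42.5% above the limit and 22.2% and 26.4% of all tested genes. In the single libraries the median of the members ran from -0.21 to -0.0041 for Hal and from -0.44 to -0.23 for Pic. With a change of 1 or more on the log2 scale required, 11 members were higher and 15 lower after Hal, which is 27.4%, against 22.4% of all tested genes, and 7 were higher and 19 lower after Pic, which is 27.4%, against 11.1%. The shares of the genes above the limit by this rule are not given here. All tested genes include more genes of low level, whose changes come out smaller on this scale. Here, too, the balance rests on the scaling. With equal totals of reads, the median of all tested genes moved by 0.42 for Hal and 0.29 for Pic, and 53 members were higher and 18 lower after Hal (55.8% and 18.9%, against 51.6% and 16.1% of all tested genes and 48.3% and 27.2% above the limit). After Pic, 35 were then higher and 28 lower (36.8% and 29.5%, against 41.0% and 12.6% of all tested genes and 41.7% and 21.2% above the limit). The median of the members was then 0.51 for Hal and 0.02 for Pic. The summed leaf marker level at 96 h was between 98665 and 107691 FPKM after Hal, between 115711 and 117542 FPKM after Pic, and between 168247 and 189997 FPKM in the control, and its part in the falls of the members was not tested.

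BnaC08g18090D and BnaA01g00670D, both upregulated at 48 h after Hal, had the largest rises at 96 h after Hal. In BnaC08g18090D the Hal level was higher at each later time, with 6.65, 6.67, and 6.71 FPKM at 48 h and 13.6, 10.4, and 12.3 FPKM at 96 h. The Pic libraries of 96 h had 2.41, 1.98, and 1.59 FPKM and the controls 2.03, 1.14, and 2.87 FPKM, and the log2 fold changes were 2.15 (SE 0.16, adjusted p = 3.52e-11) for Hal and 0.02 (adjusted p = 0.927) for Pic. After Pic the largest log2 fold changes at 96 h were those of BnaC03g00940D, given above, and BnaC05g00840D (scaffold LK032052, chromosome C05, 428271 to 432040, plus strand). BnaC05g00840D had 7.49, 7.57, and 7.15 FPKM after Hal, 9.70, 8.70, and 10.1 FPKM after Pic, and 2.53, 2.88, and 2.38 FPKM in the control. In limma the log2 fold changes were 1.23 (SE 0.13, adjusted p = 1.99e-08) and 1.55 (SE 0.13, adjusted p = 1.17e-09). The herbicide libraries were all above the controls at this time. At 48 h the gene was called for neither herbicide (log2 fold change -0.05, adjusted p = 0.773, for Hal and -0.21, adjusted p = 0.238, for Pic), and the level of the control was higher at 48 h (5.78, 4.82, and 4.61 FPKM) than at 96 h.

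The lowest log2 fold change at 96 h after Pic, and the second lowest after Hal, was that of BnaCnng49840D (scaffold LK035126, not placed on a chromosome of the C subgenome, 10166 to 11864, plus strand). It had 1.32, 0.809, and 1.69 FPKM after Hal, 1.56, 2.01, and 1.59 FPKM after Pic, and 14.9, 14.0, and 15.7 FPKM in the control. Its log2 fold changes were -2.82 for Hal and -2.55 for Pic. The gene is a member through these control libraries, and elsewhere 5 FPKM was reached in 1 control library of 2 h, so the differences at 96 h are a description. The level of the control at 96 h was far above that at 48 h (4.07, 2.40, and 4.14 FPKM) and 2 h (4.37, 5.05, and 4.46 FPKM). After either herbicide, all libraries of 96 h lay below those of 2 h. BnaC01g01940D (scaffold LK031789, chromosome C01, 3767425 to 3768938, minus strand) also had its highest level in the control of 96 h, with 3.28, 2.68, and 2.29 FPKM after Hal, 0.405, 1.51, and 1.53 FPKM after Pic, and 10.7, 7.83, and 10.4 FPKM in the control at 96 h, and 3.11, 2.16, and 3.15 FPKM in the control at 48 h. Its log2 fold changes at 96 h were -1.50 for Hal and -2.35 for Pic, and this gene, too, is a member only through the control of 96 h.

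**Figure D3:**
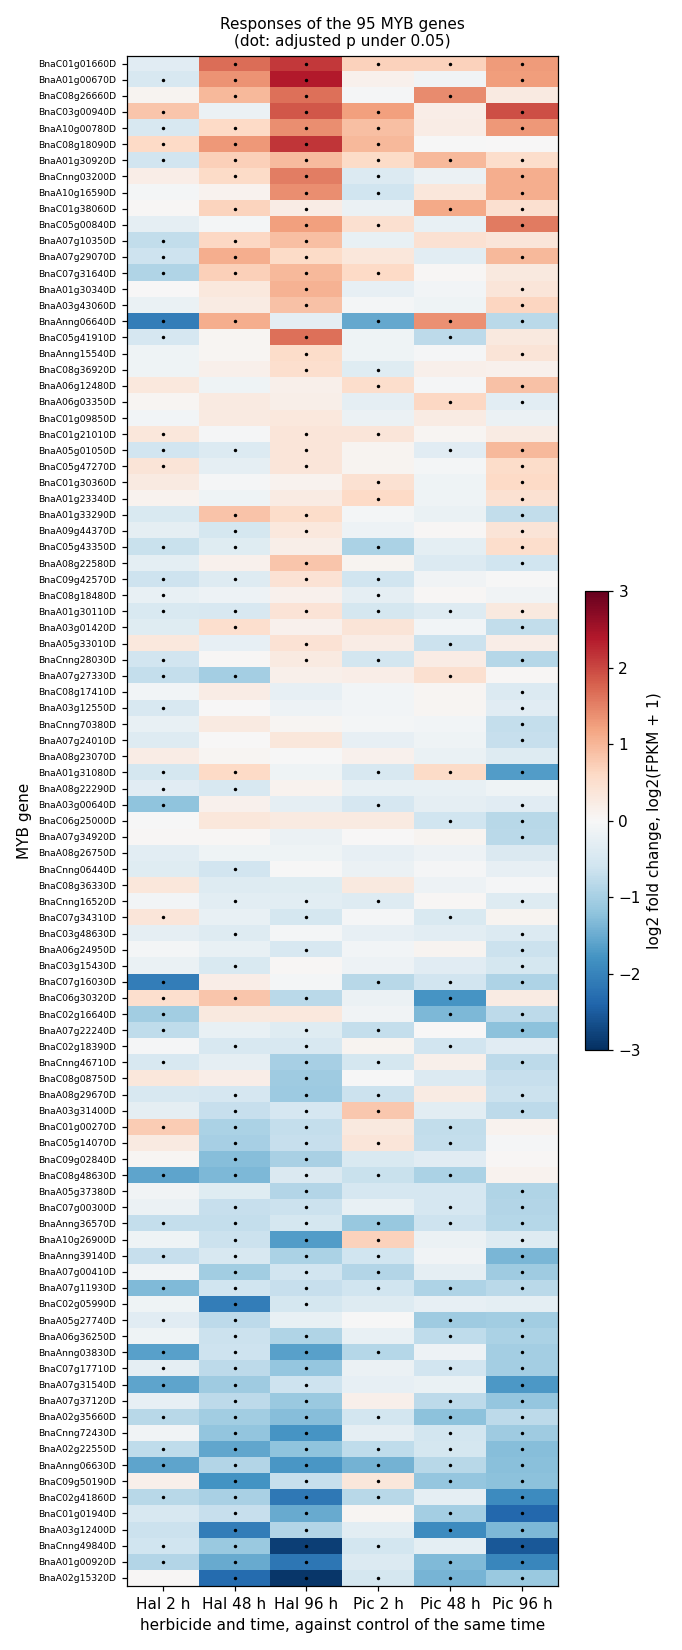
Log2 fold change on the log2(FPKM + 1) scale of each of the 95 MYB genes (rows, in order of their mean response) in the 6 comparisons with the control of the same harvest (columns), with red for higher and blue for lower after the herbicide. Dots mark an adjusted p under 0.05 in limma, from 37 members at 48 h after Pic to 69 members at 96 h after Pic.

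Within a herbicide, the calls of different times rest on different control libraries. After Hal, 33 members were called at both 2 and 96 h, which is 75.0% of those called at 2 h and 49.3% of those called at 96 h, against 70.5% and 25.6% over all tested genes and 79.0% and 33.3% over those above the limit. Of these, 4 were up and 15 down at both times, 11 were down at 2 h and up at 96 h, and 3 were up at 2 h and down at 96 h, so that 42.4% had opposite directions, against 38.1% over all tested genes. Between 48 and 96 h, 48 members were shared for Hal (82.8% and 71.6% of the lists, against 76.8% and 62.7% over all tested genes and 84.0% and 73.0% above the limit), with 31 down and 12 up at both times. After Pic, 35 members were called at both 2 and 96 h (81.4% and 50.7% of the lists, against 61.0% and 25.2% over all tested genes and 70.9% and 32.1% above the limit), with 20 down and 8 up at both times and 20.0% in opposite directions, against 26.6% over all tested genes. Between 48 and 96 h, 27 members were shared for Pic (73.0% and 39.1% of the lists, against 63.8% and 41.8% over all tested genes and 71.7% and 50.3% above the limit), with 19 down and 3 up at both times. The shares of 48 and 96 h were thus near or below those of the genes above the limit.

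A member that was lower than the control at every time after both herbicides, chosen after its values were seen, was BnaA02g22550D (scaffold LK032048, chromosome A02, 470720 to 473923, plus strand). After Hal it had 7.37, 10, and 10.9 FPKM at 2 h, 6.62, 7.87, and 6.40 FPKM at 48 h, and 11.8, 9.80, and 10.8 FPKM at 96 h. After Pic it had 9.28, 10.1, and 8.63 FPKM at 2 h, 14.7, 14.2, and 16.6 FPKM at 48 h, and 9.89, 10.5, and 10.2 FPKM at 96 h. In the control it had 15.7, 17.4, and 16.4 FPKM at 2 h, 23.5, 22.5, and 21.2 FPKM at 48 h, and 24.5, 26.7, and 27.2 FPKM at 96 h. All herbicide libraries lay below the controls of their time. The log2 fold changes were -0.76, -1.56, and -1.21 for Hal and -0.76, -0.54, and -1.28 for Pic, of which the largest adjusted p was 0.000483. At 96 h both genes of the adjacent pair were called lower after Pic, and only BnaAnng06630D was called lower after Hal. BnaAnng06630D was lower in each comparison, with 0.750, 0.416, and 0.434 FPKM after Hal, 1.38, 1.09, and 0.978 FPKM after Pic, and 3.73, 4.71, and 3.96 FPKM in the control at 96 h (log2 fold change -1.75, adjusted p = 2.53e-07, for Hal and -1.25, adjusted p = 4.92e-05, for Pic). BnaAnng06640D had 12.8, 11.8, and 12.1 FPKM after Hal, 7.62, 9.55, and 7.33 FPKM after Pic, and 15.8, 13.8, and 15.0 FPKM in the control (log2 fold change -0.26, adjusted p = 0.145, for Hal and -0.80, adjusted p = 0.000144, for Pic).

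MYB51 and MYB95 are the 2 members with a description. MYB51 is known in *A. thaliana* as a regulator of the synthesis of indolic glucosinolates, which are defence compounds of the Brassicaceae. The copy described as MYB95, BnaA07g31540D (scaffold LK031894, chromosome A07, 1267465 to 1269440, plus strand), had 4.84, 5.09, and 4.92 FPKM at 2 h after Hal, 17.2, 13.3, and 11.8 FPKM after Pic, and 14.6, 17.6, and 18.7 FPKM in the control. It fell by 1.59 (SE 0.14, adjusted p = 6.78e-09) after Hal, with all Hal libraries below the controls, and the value for Pic was -0.26 (adjusted p = 0.22). At 96 h the order of the herbicides had turned, with 25.3, 22.7, and 23.3 FPKM after Hal, 11.7, 11.2, and 9.09 FPKM after Pic, and 40.7, 35.1, and 36.3 FPKM in the control. The log2 fold changes were -0.63 (SE 0.14, adjusted p = 0.000417) for Hal and -1.72 (SE 0.14, adjusted p = 4.64e-10) for Pic. At 96 h the denominators of the Hal libraries were 1.1997 to 1.2465 times the total of reads. Those of the control were 0.7507 to 0.8078 times the total, which lowers the Hal FPKM relative to the control. The falls of this gene after Hal and after Pic were not examined singly with equal totals of reads. They are given for the deposited FPKM only. The copy described as MYB51, BnaA08g22580D (scaffold LK031895, chromosome A08, 695240 to 697312, minus strand), had 8.78, 5.81, and 8.91 FPKM after Hal, 1.65, 3.26, and 1.99 FPKM after Pic, and 3.92, 4.24, and 3.5 FPKM in the control at 96 h. The log2 fold change was 0.84 for Hal, given as a description because the gene reached 5 FPKM only in the Hal libraries of 96 h, and -0.59 (SE 0.20, adjusted p = 0.0167) for Pic. Each Hal library lay above and each Pic library below all controls in the deposited FPKM. These values of the MYB51 copy were not examined singly with equal totals of reads either. At 2 and 48 h the gene was called for neither herbicide, with adjusted p between 0.118 and 0.83.

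**Figure D4:**
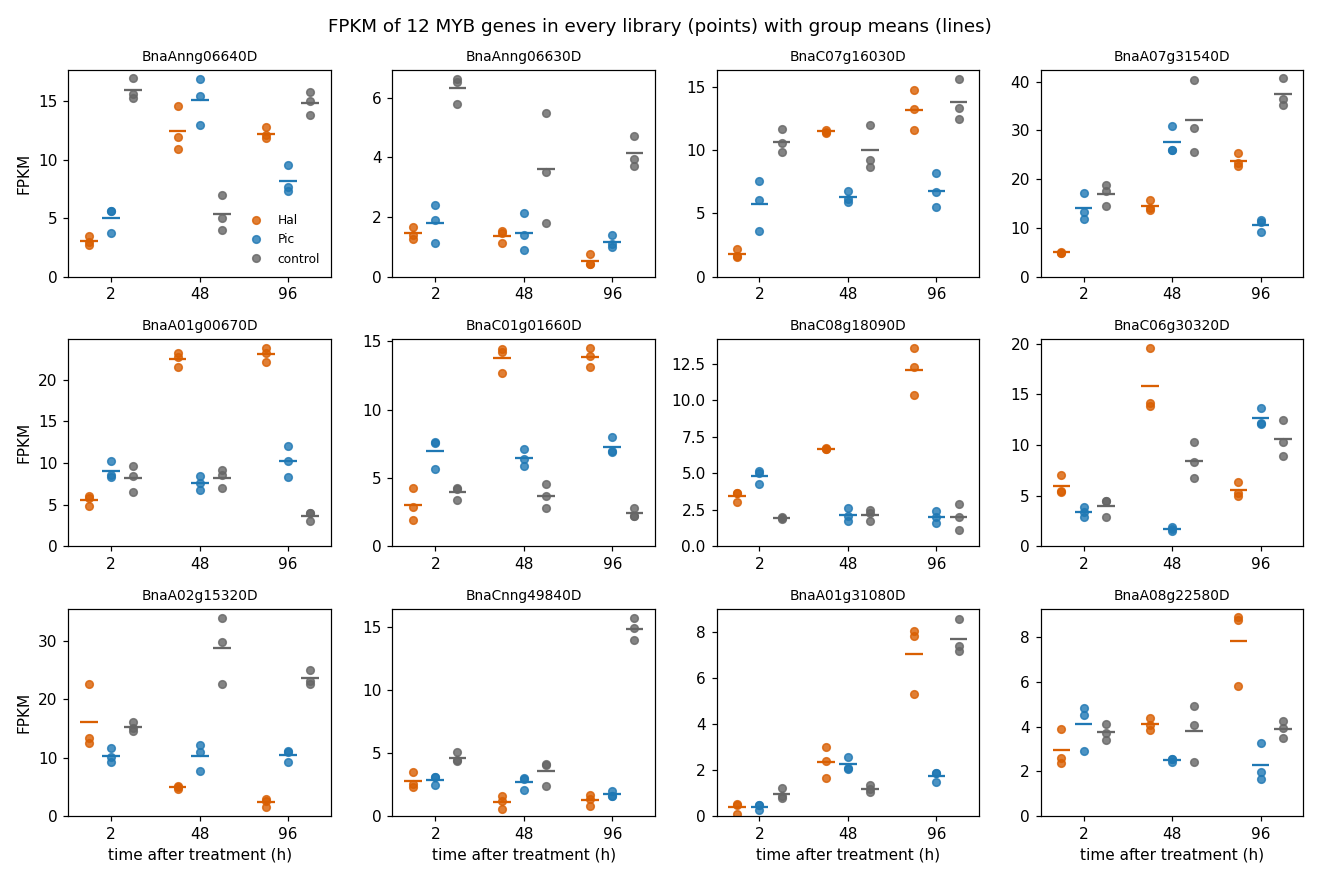
FPKM of 12 MYB genes in each library (points) with group means (lines), by time after treatment in h, for Hal (orange), Pic (blue), and control (grey), with a linear axis from 0 for each gene. BnaA07g31540D is the copy described as MYB95 and BnaA08g22580D the copy described as MYB51, whose Hal libraries at 96 h lie between 5.81 and 8.91 FPKM and whose Pic libraries lie between 1.65 and 3.26 FPKM.

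Hal and Pic were compared directly at each time, at unequal doses. At 2 h, 8 members were higher and 25 lower after Hal than after Pic (34.7%, against 20.3% of all tested genes and 28.3% above the limit). By direction, 8.42% of the members were higher and 26.3% lower, against 9.04% and 11.2% of all tested genes and 12.6% and 15.7% above the limit. At 48 h, 19 were higher and 25 lower (46.3%, against 31.4% and 44.3%). At 96 h, 36 were higher and 15 lower (53.7%, against 45.0% and 60.6%), so that the balance of the called members lay on the side of Pic at 2 h and on that of Hal at 96 h. By direction, 37.9% of the members were higher and 15.8% lower at 96 h, against 23.0% and 22.0% of all tested genes and 27.8% and 32.8% above the limit. The median log2 difference of the members was -0.10, -0.07, and 0.21 at 2, 48, and 96 h, and the medians of the other genes are not given here. The balance of 48 h turned with equal totals of reads, to 23 higher and 14 lower (24.2% and 14.7%, against 21.0% and 12.1% of all tested genes). Those of 2 and 96 h kept their side, with 8 higher and 25 lower at 2 h (8.42% and 26.3%, against 9.13% and 12.2%) and 49 higher and 13 lower at 96 h (51.6% and 13.7%, against 31.8% and 18.0%). Without Pic replicate 1 at 2 h 4 members were higher, without Pic replicate 3 at 2 h 5 were, and without Pic replicate 3 at 48 h 16 members were lower.

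The largest difference at 2 h was that of BnaC07g31640D (scaffold LK032139, chromosome C07, 149953 to 150951, plus strand), which had 1.91, 2.69, and 2.86 FPKM after Hal and 11.6, 7.26, and 7.89 FPKM after Pic, with 5.28, 5.69, and 5.33 FPKM in the control. Hal was lower than Pic by 1.49 (SE 0.17, adjusted p = 6.24e-07) on the log2 scale, and the groups lay on opposite sides of the control. In the other direction, BnaA07g00410D (scaffold LK032283, chromosome A07, 149391 to 152101, minus strand) had 8.21, 9.73, and 4.85 FPKM after Hal, 3.97, 3.32, and 4.13 FPKM after Pic, and 7.27, 7.73, and 8.38 FPKM in the control. This difference of 0.80 (SE 0.18, adjusted p = 0.0019) missed the threshold when only the libraries of both groups were in the fit (adjusted p = 0.0740). At 48 h BnaC06g30320D was higher after Hal by 2.61 (SE 0.16, adjusted p = 5.68e-12) and BnaC02g05990D lower by 1.84 (SE 0.19, adjusted p = 3e-08), with the FPKM given above. At 96 h BnaC08g18090D was higher after Hal by 2.13 (SE 0.16, adjusted p = 9.9e-11) and BnaA02g15320D lower by 1.80 (SE 0.18, adjusted p = 1.73e-08). The log2 difference of the MYB51 copy at 96 h was 1.43, a description for the reason given above. The MYB95 copy was lower after Hal at 2 h (log2 fold change -1.33, adjusted p = 1.3e-07) and at 48 h (log2 fold change -0.89, adjusted p = 1.96e-05) and higher after Hal at 96 h (log2 fold change 1.09, adjusted p = 5.81e-07).

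Part of the members also changed with time in the control. In control leaves of 48 h against 2 h, 43 members were higher and 3 lower (48.4%, against 30.4% of all tested genes and 43.1% above the limit). The share of higher members was 45.3%, against 16.9% of all tested genes and 28.5% above the limit, and the median log2 difference of the members was 0.35, against 0 over all tested genes. The genes above the limit also leaned upward, with 14.6% lower, and their median is not given here. The summed leaf marker level was between 170688 and 198111 FPKM in the control of 48 h and between 111979 and 120424 FPKM in that of 2 h, and its part in these rises was not tested. With equal totals of reads the median of all genes moved by -0.23, and 23 members were higher and 13 lower (24.2% and 13.7%, against 7.87% and 31.1% of all tested genes and 13.2% and 35.1% above the limit). In control leaves of 96 h against 48 h, 18 members were higher and 25 lower (45.3%, against 29.8% and 43.1%), and 11 were higher and 27 lower with equal totals (11.6% and 28.4%, against 12.3% and 13.9% of all tested genes and 20.5% and 18.9% above the limit). The largest log2 difference between 48 and 2 h was that of BnaA03g12400D, with 9.89, 7.67, and 6.38 FPKM at 48 h and 1.19, 1.82, and 2.47 FPKM at 2 h (log2 fold change 1.68). It also had the lowest value of 96 h against 48 h, with 3.48, 2.99, and 2.12 FPKM at 96 h (log2 fold change -1.21), which was past the threshold with a pseudocount of 1 and not of 0.1. Both rest on the control libraries of 48 h that made it a member, and they are a description. The deepest fall of 48 h against 2 h was that of BnaAnng06640D (log2 fold change -1.44, SE 0.15, adjusted p = 9.39e-08). The largest log2 difference of 96 h against 48 h was that of BnaA01g31080D (scaffold LK032372, chromosome A01, 275350 to 276570, minus strand), with 8.60, 7.42, and 7.18 FPKM at 96 h and 1.36, 1.16, and 1.05 FPKM at 48 h (log2 fold change 1.99). At 96 h the same gene had 7.85, 5.34, and 8.05 FPKM after Hal, which overlapped the control (log2 fold change -0.13, adjusted p = 0.516), and 1.89, 1.88, and 1.46 FPKM after Pic, below every control library (log2 fold change -1.67). The gene reached 5 FPKM only in control and Hal libraries of 96 h, so its differences from other groups are a description.

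Counts by subgenome are given for 2 comparisons, chosen after their values were seen, and without a test. At 2 h after Hal, 0 of the 50 A members were up and 24 down, and 7 of the 45 C members were up and 13 down. Over all tested genes, 9.63% of the A genes were up and 12.8% down, and 10.7% of the C genes were up and 10.2% down. At 96 h after Pic, 44 of the 50 A members and 25 of the 45 C members were called, against 49.6% of all tested A genes and 48.1% of all tested C genes. The A and C copies of a gene are similar in sequence, and how reads shared between copies were counted is not given in the sources used here, so the level of a single copy is uncertain. The library kit is not stated to keep the strand.

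The members were also set beside their neighbours on the scaffold, up to 10 tested genes on each side with at least 5 in all. Such a value could be given for 83 members. The median of the neighbours was above 0.5 in size (log2) in 1, 3, and 11 members at 2, 48, and 96 h after Hal and in 4, 3, and 5 members after Pic. BnaA01g00670D rose by 2.37 at 96 h after Hal beside a median of -0.18 for its neighbours, and BnaA02g15320D fell by 2.91 beside 0.19. BnaC03g00940D, BnaC02g05990D, and BnaC06g30320D, whose neighbours went the same way in some comparisons, are given with those values above.

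**Figure D5:**
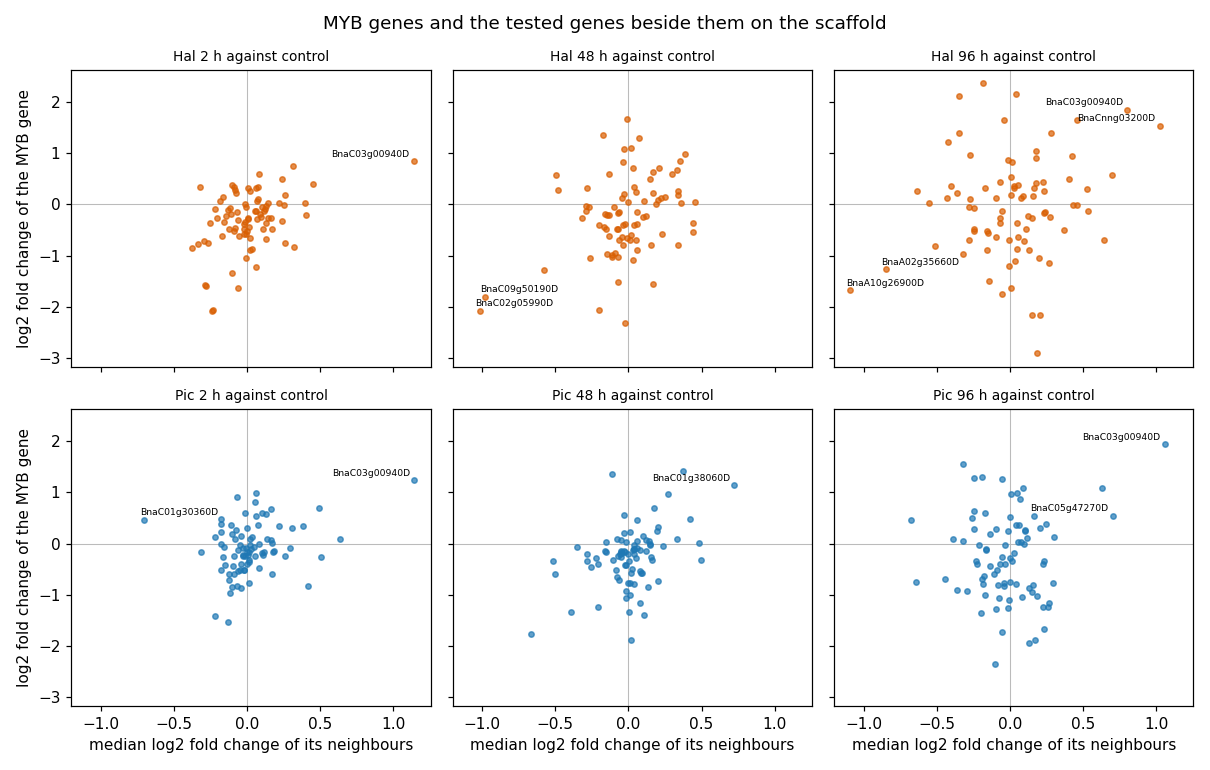
Log2 fold change of each of 83 MYB genes (vertical axis) against the median log2 fold change of up to 10 tested genes on each side of it on the scaffold (horizontal axis), in the 6 comparisons with the control of the same harvest. Named points lie far to the left or right, such as BnaC03g00940D, whose neighbours had a median of 1.14 at 2 h after Hal.

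Genes of pathways in which MYB proteins of *A. thaliana* take part were counted by words in the description, with no test of the lists. Of 9 tested genes for flavonoid enzymes (such as chalcone and flavanone enzymes), 6 were up and 3 down at 96 h after Pic, against 22.2% up and 26.4% down over all tested genes. At 96 h after Hal, 0 were up and 4 down, against 29.1% and 30.2%. Compared directly, 7 of the 9 were lower after Hal than after Pic at 96 h and 0 higher, against 22.0% lower over all tested genes, and the median log2 difference was -1.15. At 2 h, 0 were up and 3 down after Hal (10.1% and 11.4% of all tested genes), and 2 were up and 3 down after Pic (10.7% and 9.37%). At 48 h, 0 were up and 3 down after Hal (23.3% and 25.1%), and 1 was up and 2 down after Pic (13.9% and 17.9%). Of 23 tested phosphate starvation genes (SPX domain proteins, inorganic phosphate transporters, and purple acid phosphatases), 10 were up and 3 down at 96 h after Hal, against 29.1% up and 30.2% down over all tested genes. Fewer were called earlier after Hal, with 0 rises and 6 falls at 2 h and 5 rises and 2 falls at 48 h. After Pic there were 0 rises and 2 falls at 2 h, 5 rises and 4 falls at 48 h, and 4 rises and 4 falls at 96 h, with the shares of all tested genes as for the flavonoid enzymes. The words for clock genes found 1 tested gene, a pseudo-response regulator described as APRR5, which was upregulated after Hal at 2, 48, and 96 h by 2.76, 0.99, and 1.51 on the log2 scale and after Pic at 2 and 96 h by 1.70 and 1.40. Its level ran from 2.51 to 25.6 FPKM over the libraries with a median of 8.03 FPKM. The dependence of these values on the scaling was not examined.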

How the data were processed

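The authors deposited FPKM values of 104573 genes in 27 libraries, and per the labels the libraries were made with an NEBNext Ultra RNA kit and the submitters' processing notes list CASAVA, HISAT2, StringTie, DESeq2, edgeR, and GATK. Their roles and versions, the genome build, and the treatment of reads shared between copies are not given in the sources used here. Reads per gene were recovered by multiplying FPKM with gene length (100% whole within 0.001 of a read, in every library). The deposited denominators were 0.751 to 1.25 times the total of a library. The deposited values were not rescaled.

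Tested genes had 1 FPKM or more in 3 or more libraries. A model of 9 group means was fitted to log2(FPKM + 1) in limma 3.58.1 (R 4.3.3) with a variance trend, with 11 contrasts and Benjamini-Hochberg adjustment over 46395 genes within a contrast. It was tested on simulated data. Per the labels, the replicates come from different plant material. Precision is given as the standard error over 3 libraries a group.

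Members, lists, and tests were chosen with earlier results of these data known. The genes named are the 2 largest rises and falls of each herbicide contrast and the largest of each other contrast, among called members whose groups do not overlap, the 5 members of highest mean, and those with a description. Others are said to be chosen after their values were seen. The lists by words were clock partners, flavonoid enzymes, phosphate starvation genes, and markers of leaf and seed storage tissue. Each count was repeated with a pseudocount of 0.1, no filter, a filter at 5 FPKM, membership by mean, equal totals of reads, only the compared libraries, limma voom on reads, a replicate block, and each library left out. Tables and figures were made with Python 3.11.15, pandas 2.3.3, numpy 2.4.6, and matplotlib 3.10.9. No sequences were analysed.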

Additional observations from a re-analysis of the deposited data

Results flagged for a closer look

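In 4 of the named genes the response to Hal in the deposited FPKM had opposite directions at 2 and 96 h, each past the threshold. They were picked for these opposite directions, so the response at 96 h minus that at 2 h, from the limma model, is given with its standard error as a description, and a test of it would restate the choice. In BnaA01g00670D the log2 fold change was 2.37 at 96 h and -0.47 at 2 h, a difference of 2.84 (standard error 0.19). In BnaC07g31640D it was 0.96 at 96 h and -0.89 at 2 h, a difference of 1.86 (standard error 0.25). At 96 h this gene had 9.19, 8.88, and 8.63 FPKM after Hal, against 3.65, 5.64, and 3.26 FPKM in the control. In BnaC06g30320D the log2 fold change was -0.81 at 96 h and 0.50 at 2 h, a difference of -1.31 (standard error 0.23). Its Hal libraries had similar levels at both times, with 5.34, 5.51, and 7.02 FPKM at 2 h and 5.30, 6.39, and 4.98 FPKM at 96 h. The control was higher at 96 h (10.3, 8.92, and 12.5 FPKM) than at 2 h (4.47, 2.92, and 4.46 FPKM). The fall at 96 h was not examined singly with equal totals of reads. In BnaC01g00270D it was -0.72 at 96 h and 0.76 at 2 h, a difference of -1.48 (standard error 0.32). The fall of BnaC01g00270D at 96 h was not examined singly with equal totals of reads either. The rise of BnaC01g00270D at 2 h missed the threshold without Hal replicate 1, Hal replicate 3, or control replicate 3. Of the 26 genes chosen by the naming rule of the processing section, none was called in opposite directions at 2 and 96 h after Pic.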

How the results depend on the processing

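The counts of called members moved by over 1.5 times under equal totals of reads, membership by mean FPKM, a fit of the compared libraries alone, the replicate block, and some left-out libraries, and under no other alternative. With equal totals of reads, Hal raised 32 members and lowered 23 at 48 h and raised 53 and lowered 18 at 96 h, Pic raised 16 at 48 h and raised 35 and lowered 28 at 96 h, and 14 were lower after Hal than after Pic at 48 h, 23 higher and 13 lower in the control of 48 h against 2 h, and 11 higher in that of 96 h against 48 h. With membership by a mean of at least 5 FPKM, fewer genes (52) can be called: 2 higher at 2 h, 10 higher and 25 lower at 48 h, and 14 higher and 19 lower at 96 h after Hal, 17 lower at 2 h, 5 higher and 17 lower at 48 h, and 27 lower at 96 h after Pic, 5, 11, and 19 higher after Hal than after Pic at 2, 48, and 96 h, 28 higher and 1 lower in the control of 48 h against 2 h, and 6 higher and 16 lower in that of 96 h against 48 h. With a fit of the compared libraries alone, 4 were higher after Hal at 2 h, 2 higher and 14 lower after Hal than after Pic at 2 h, 1 lower in the control of 48 h against 2 h, and 11 higher in that of 96 h against 48 h, and the cause was not tested. With each compared library left out in turn, the members higher and lower after Hal numbered 4 to 5 and 29 to 37 at 2 h, 14 to 18 and 35 to 43 at 48 h, and 23 to 28 and 32 to 36 at 96 h, and after Pic 11 to 13 and 17 to 26 at 2 h, 7 to 8 and 24 to 31 at 48 h, and 18 to 19 and 40 to 47 at 96 h. For Hal against Pic they were 4 to 9 and 20 to 23, 15 to 17 and 16 to 20, and 31 to 36 and 13 to 15 at 2, 48, and 96 h, and for the control 35 to 46 and 2 to 4 (48 h against 2 h) and 13 to 21 and 20 to 25 (96 h against 48 h). The replicate numbers do not pair the libraries: of 33 same-numbered pairs, 1 had a correlation of residuals above 0.1 (range -0.21 to 0.11), and 10 correlated best with their own number. With the replicate block, 4 members were higher after Hal at 2 h, and it moved no other count by over 1.5 times. No gene named for a large difference reversed in the comparison that named it, nor did the 4 changes of the Hal response flagged above. Other comparisons of these genes were not checked singly. Nor were the genes named for their level, for their description, or after their values were seen. Without 1 library at a time, a named gene lost its call in 3 fits, and under the other alternatives in 2. The fold changes of members with a mean under 10 FPKM (75 of 95) are understated most.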
